A study of Mus musculus with 136 samples.

Results

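Kitl encodes Kit ligand, also called stem cell factor, and Kit encodes the receptor tyrosine kinase that binds it. Their RNA was followed in embryos and visceral yolk sacs of the NOD mouse, a strain in which diabetes arises spontaneously. The pair makes up 2 of the 47643 genes of the count table, which were found by their symbols. It was chosen by results of these same data: Kitl was selected on its diabetes effect, which differed between the stages in embryos and tended to differ between the tissues, and Kit was added as its receptor. The diabetes effects of Kitl and their differences between stages and tissues are therefore given as a description, without a test, whereas those of Kit were tested.

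Kit ligand is made as a membrane protein, from which a soluble form can be released by cleavage. Binding of the ligand pairs receptors and switches on their kinase, and the signal runs through adaptors, phosphoinositide 3-kinase, the Ras and MAP kinase cascade and STAT factors. The pair is known for its part in the survival, growth and migration of blood progenitors, germ cells and melanoblasts. In the yolk sac, Kit marks early blood progenitors.

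The libraries came from 66 concepti at 8.5 days of gestation, each with 1 embryo and 1 yolk sac library; 4 further libraries are repeats made as batch controls and were left out. Dams with spontaneous diabetes had blood glucose between 423 and 595 mg/dl where a number is given, and normoglycemic NOD dams had 105 to 164 mg/dl. At 5 or 6 somite pairs 10 normal and 9 diabetic litters each gave 17 concepti in all. At 7 to 9 somite pairs 7 normal and 6 diabetic litters each gave 16 in all, with 7 of the 16 diabetic concepti coming from a single dam, D24M15. Embryos of both sexes were used, and the strain and chow diet were shared by all groups. Littermates share a dam, so p-values over concepti rest on units that are not fully independent. For Kit, several tests with the litter as the unit stand beside them. Other genes named from the lists below were tested over concepti alone. Each library held between 1017901 and 5658850 counts of molecules. The 10 markers of visceral endoderm had means in embryos that were 1.57% to 4.87% of their means in yolk sacs at 5 or 6 somite pairs, and 1.304% to 3.31% at 7 to 9. For 2 concepti, the embryo and yolk sac labels name different sexes.

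Kitl (ENSMUSG00000019966) lies at chr10:100015630-100100416 and Kit (ENSMUSG00000005672) at chr5:75574916-75656722, both on the plus strand (GENCODE M21, GRCm38). Both genes give rise to alternative forms that differ in a short coding stretch, shown here since the counts add up all forms of a gene and cannot tell these apart. In Kitl, exon 6 of transcript Kitl-202 (chr10:100080857-100080940, 84 bases) is absent from Kitl-201; it holds the main cleavage site, so the form with it is released readily and the form without it stays mostly in the membrane. In Kit, the last 12 bases of exon 9 of Kit-201 (chr5:75639147-75639158) are absent from Kit-204, which gives receptors with and without a short insert next to the membrane. Capitals mark the alternative stretch, and 24 bases of the neighboring coding sequence on either side are in lower case.
Kitl alternative exon: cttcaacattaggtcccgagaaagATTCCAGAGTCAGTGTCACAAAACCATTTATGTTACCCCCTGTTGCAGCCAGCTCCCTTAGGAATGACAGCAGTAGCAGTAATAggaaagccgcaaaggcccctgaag
Kit alternative stretch: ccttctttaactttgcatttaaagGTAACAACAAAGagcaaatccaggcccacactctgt

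Both genes were detected in all 66 embryos and all 66 yolk sacs. Counts of Kitl ran from 17 to 340 per library, and those of Kit from 14 to 151 in embryos and from 4 to 57 in yolk sacs, so that values of Kit in yolk sacs carry the largest counting error. Levels below are normalized counts, which are counts divided by the DESeq2 size factor of the library over all libraries of both tissues, and are given as mean ± SD.

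In embryos of the earlier stage, the ligand was higher in diabetic pregnancies. Kitl had 149.8 ± 33.0 normalized counts in the 17 normal embryos, with a lowest value of 91.1, a median of 152 and a highest value of 210.0. The 17 diabetic embryos had 206 ± 42.5, from 145 to 283 with a median of 186. Of these, 16 lay above the median of the normal embryos and 8 above the highest normal embryo, while the remaining 9 fell within the normal range. The log2 fold change from edgeR was 0.46 (standard error 0.10), a level 1.38-fold that of normal embryos. All 9 diabetic litters had a litter mean above the median of the 10 normal litters, at 178 to 238 normalized counts against 91.1 to 210.0.

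In embryos of the later stage, the order of the conditions was turned around. Kitl had 140.5 ± 26.8 normalized counts in normal embryos, from 90.8 to 189.6 with a median of 141, and 112 ± 24.9 in diabetic embryos, from 56.7 to 147 with a median of 119. Here 15 of 16 diabetic embryos lay below the normal median and 3 below the lowest normal embryo; the groups overlap in most of their range. The log2 fold change was -0.31 (standard error 0.11). Litter means ran from 77.7 to 123.4 normalized counts for the 6 diabetic dams and from 123.6 to 189.6 for the 7 normal dams. The ranges thus nearly met. Kitl was chosen on this effect, and the share of all genes with litter means apart was not counted. Kitl transcripts are poor in G and C (39.3% in the longest transcript, against a median of 49.4% over genes with a mean count of at least 10). After trends on GC content and length were removed within each library, the log2 fold change at this stage was -0.16 (standard error 0.10), and 0.37 (standard error 0.08) at the earlier stage.

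Whereas the normal embryos had similar Kitl levels at both stages, where the mean fell by 6.23% from the earlier to the later one, the mean of diabetic embryos fell by 45.4%. The difference between the stages in the diabetes effect, which chose the gene, was -0.76 on the log2 scale (standard error 0.15), and -0.52 (standard error 0.13) with the trends removed. By number of somite pairs from 5 to 9, medians in normal embryos were 166, 119, 156, 126 and 159 normalized counts. In diabetic embryos they were 211, 180, 105, 128 and 118. The largest drop between neighboring medians in diabetic embryos lies between 6 and 7 somite pairs, with 4 embryos at each. In normal embryos it lies between 5 and 6, after which the median is higher again at 7. Each number of somite pairs is represented by 3 to 13 embryos per condition, and these values belong to the effect that chose the gene.

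**Figure D1:**
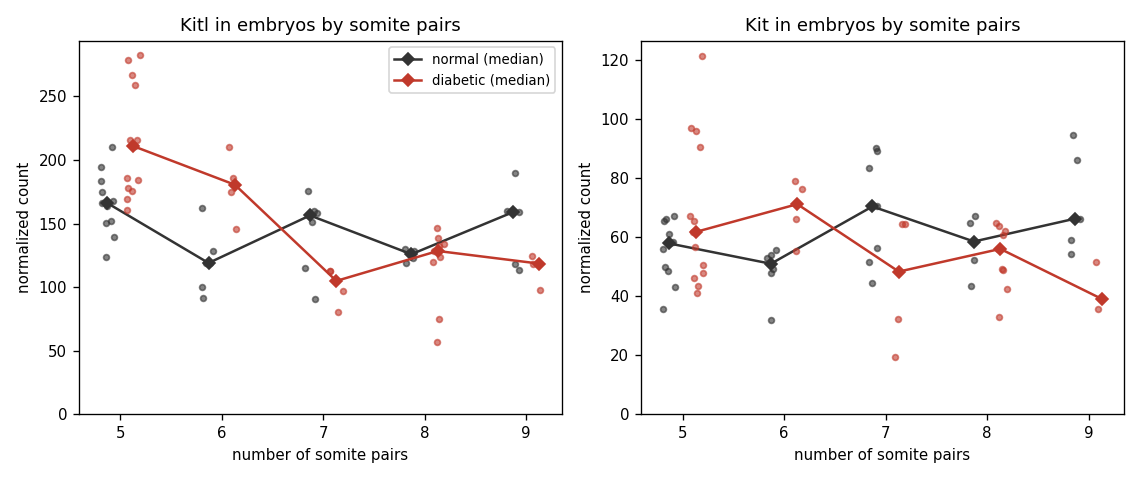
Normalized counts of Kitl (left) and Kit (right) in embryos against the number of somite pairs, with a point for each embryo and diamonds joined by lines for the median of each condition (black normal, red diabetic). For both genes the red median lies above the black one at 5 and 6 and below it at 7 and 9 somite pairs. At 8 somite pairs the normal and diabetic medians are 126 and 128 for Kitl, and 58.5 and 56.0 for Kit.

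The receptor was compared in the same embryos. At the earlier stage Kit had 52.96 ± 9.90 normalized counts in normal embryos, from 32.1 to 67.0 with a median of 53.9. Diabetic embryos had 68.4 ± 22.4, from 41.2 to 121 with a median of 65.4. There were 12 of 17 diabetic embryos above the normal median and 7 above the highest normal embryo, so the spread was wider under diabetic conditions. The log2 fold change was 0.37 (standard error 0.13), which edgeR's quasi-likelihood test did not call after Benjamini-Hochberg adjustment over all 11004 genes tested (p = 0.0057, adjusted p = 0.104). In this comparison 0.591% of genes tested were called higher and 0.872% lower, at an adjusted p under 0.05. With litter means as the unit, 6 of 9 diabetic litters lay above the normal median (log2 difference 0.34, two-sided exact permutation test, p = 0.0628, adjusted p = 0.155 over 12 tests of litters).

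At the later stage Kit was lower in diabetic embryos. Normal embryos had 67.0 ± 16.96 normalized counts, from 43.3 to 94.5 with a median of 65.5, and diabetic embryos had 49.2 ± 14.2, from 19.4 to 64.7 with a median of 50.4. All 16 diabetic embryos lay below the normal median, 6 of them below the lowest normal embryo. At 7, 8 and 9 somite pairs, medians were 70.4, 58.5 and 66.3 in normal embryos (n = 7, 4 and 5). In diabetic embryos they were 48.3, 56.0 and 39.1 (n = 4, 9 and 3). The conditions were thus close at 8 somite pairs, the number most common among the diabetic embryos. The log2 fold change was -0.43 (standard error 0.14, adjusted p = 0.0447 from edgeR), where 3.89% of 10628 genes tested were called lower and 5.2% higher. Litter means ran from 35.5 to 64.3 normalized counts for the 6 diabetic dams, each under the normal median, and from 62.4 to 89.1 for the 7 normal dams (log2 difference -0.45, two-sided exact permutation test over litters, p = 0.00466, adjusted p = 0.0186). The call of edgeR was close to its threshold. It was lost without any single litter but D23M26 or D28M24, that is in 11 of 13 such fits, with adjusted p between 0.0530 and 0.0971, and with litter as a random block (log2 fold change -0.44, adjusted p = 0.125), while the direction was the same in each.

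**Figure D2:**
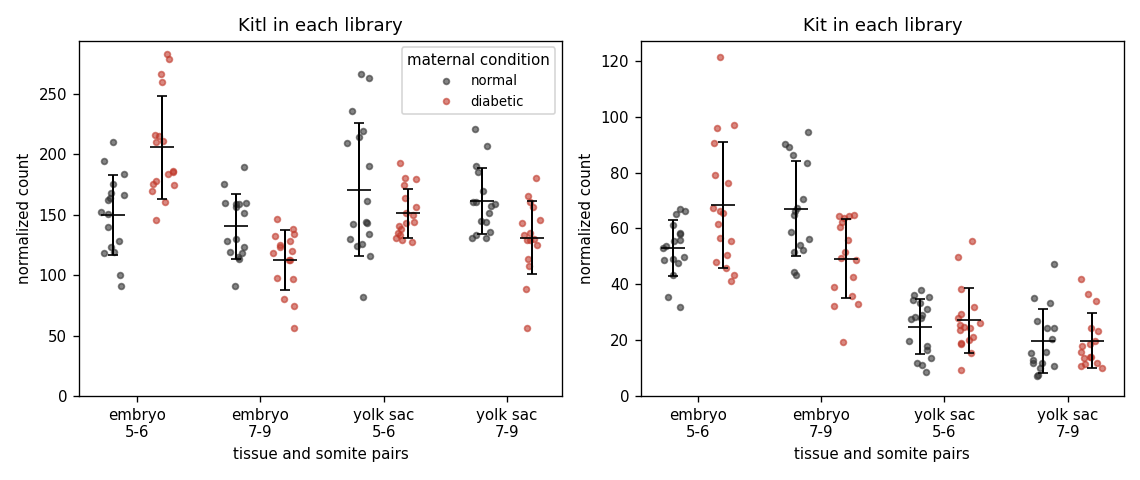
Normalized counts of Kitl (left) and Kit (right) in each library, by tissue, number of somite pairs and maternal condition (black normal, red diabetic). Points are libraries and black bars are the mean ± SD of the 17 or 16 libraries of a group; in embryos the diabetic mean lies above the normal one at 5-6 and below it at 7-9 somite pairs for both genes.

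The difference between the stages was then tested for Kit. Its diabetes effect in embryos changed by -0.79 on the log2 scale from the earlier to the later stage (standard error 0.19, 95% confidence interval -1.16 to -0.42), which was called in the interaction test of edgeR over all 66 embryos (p = 8.9e-05, adjusted p = 0.00965). Of 11304 genes tested, 8.7% were called in this interaction, in either direction. The call held in 22 of 22 fits that left out 1 litter, with log2 differences between -0.87 and -0.70 and adjusted p of at most 0.0374, with litter as a random block (-0.81, adjusted p = 0.0104), with GC and length trends removed (-0.71, adjusted p = 0.0172), and among the 46 concepti whose titles start with the number 28 (-0.81, adjusted p = 0.0180). The mean level of normal embryos was 26.6% higher at the later than at the earlier stage, and that of diabetic embryos fell by 27.98%.

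The litters that hold embryos of both stages allowed the same comparison within a dam, among the same embryos. Some of these litters had only 1 embryo at a stage. Kit was higher in the later embryos in 7 of 7 such normal litters, by 0.07 to 0.52 on the log2 scale, and lower in the later embryos in 3 of 3 diabetic litters, by -0.77 to -0.36. The mean change was 0.32 ± 0.14 (SD) in the 7 normal litters and -0.61 ± 0.22 (SD) in the 3 diabetic litters, a difference of -0.93 (two-sided exact permutation test of the 10 litters, p = 0.00833, the smallest p that 120 assignments can give; this comparison was added after the values had been seen). For Kitl, 4 of 7 normal litters and 3 of 3 diabetic litters had lower values in the later embryos. Mean changes were 0.04 ± 0.32 and -0.92 ± 0.44 (SD), with ranges of -0.38 to 0.47 and -1.42 to -0.64. They are part of the effect that chose the gene.

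**Figure D3:**
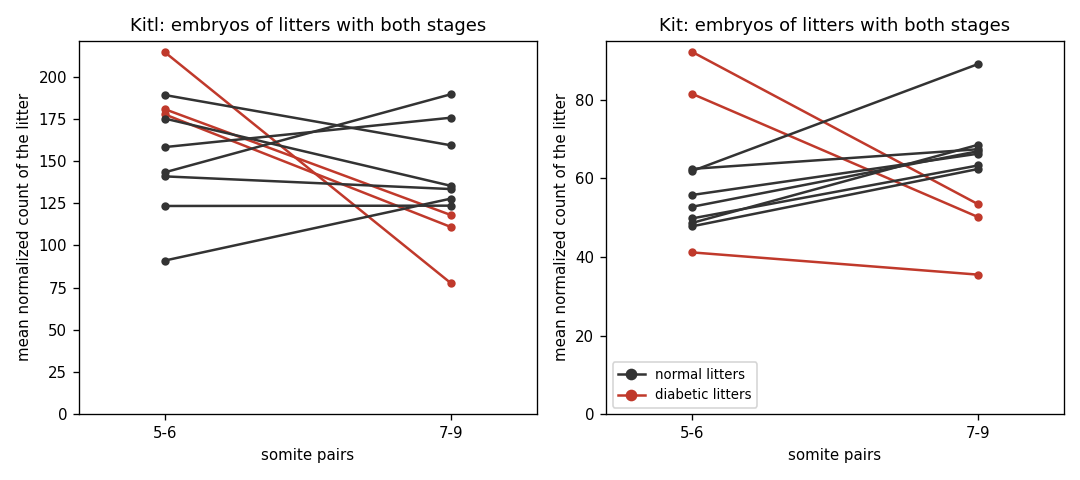
Mean normalized count of Kitl (left) and Kit (right) in the embryos of each of the 10 litters that hold both stages, with a line per litter from 5-6 to 7-9 somite pairs (black 7 normal, red 3 diabetic litters). All black lines rise and all red lines fall for Kit; for Kitl the red lines fall and the black lines go either way.

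Kit was lower in embryo libraries with more visceral endoderm RNA. Across the 66 embryos, as deviations from group means, Kit and the mean log2 level of the 10 visceral endoderm markers had a Pearson's r of -0.460, given as a description of libraries that share dissection and depth; for Kitl it was 0.089. The summed level of these markers was 96.3 to 1450 normalized counts (median 449) in the later normal and 141 to 3362 (median 537) in the later diabetic embryos, and 303 to 1114 (median 665) and 165 to 1772 (median 507) at the earlier stage; each of the 10 genes had counts in each group. A cutoff of 1500 for the sum was set after the data had been seen. It lay above the highest normal embryo, so it could leave out only diabetic embryos. Without the 2 earlier and 3 later embryos above it, the log2 fold change of Kit was 0.43 (adjusted p = 0.0877 from edgeR) in earlier embryos. It was -0.41 (adjusted p = 0.0808) in later embryos, and the interaction was -0.82 (adjusted p = 0.0146). In whole embryos, fewer cells of a type cannot be told apart from less RNA per cell.

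In yolk sacs, Kitl was lower on average in diabetic pregnancies at both stages, while the means of Kit were close. At the earlier stage Kitl had 171 ± 54.9 normalized counts in normal yolk sacs, from 81.9 to 266 with a median of 144, and 151 ± 20.3 in diabetic yolk sacs, from 128 to 193 with the same median of 144. The normal group had the wider spread, with a coefficient of variation of 32.2% against 13.4%, and the diabetic values lay within its range. The log2 fold change was -0.17 (standard error 0.12), and -0.10 (standard error 0.13) with litter as a random block. At the later stage Kitl had 161 ± 27.2 in normal yolk sacs, from 131 to 221 with a median of 158, and 131 ± 30.3 in diabetic yolk sacs, from 56.3 to 181 with a median of 131. There, 13 of 16 diabetic yolk sacs lay below the normal median and 8 below the lowest normal yolk sac, and the mean of each of the 6 diabetic litters was under the median of the normal ones. The log2 fold change was -0.29 (standard error 0.10), close to the -0.31 of later embryos, and -0.46 (standard error 0.14) among concepti with title number 28 alone. The 4 diabetic yolk sacs with 7 somite pairs were the lowest by number of somite pairs, from 56.3 to 113, and diabetic yolk sacs with 9 somite pairs had 157 ± 23.8 (SD, n = 3) beside 160.1 ± 19.4 (SD, n = 5) in normal ones.

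In yolk sacs of the earlier stage, normal pregnancies had 24.8 ± 9.85 normalized counts of Kit and diabetic ones 27.2 ± 11.7, with ranges of 8.58 to 38.0 and 9.503 to 55.6. The medians lay the other way, at 28.1 in normal and 24.8 in diabetic yolk sacs, and 12 of 17 diabetic ones were below the normal median. At the later stage Kit had 19.8 ± 11.5 and 19.9 ± 9.79, with ranges of 7.22 to 47.5 and 10.2 to 42.1 and medians of 15.7 and 16.8. Neither pair of groups was separated. By edgeR, the log2 fold changes were 0.14 (adjusted p = 0.866), with a 95% confidence interval of -0.25 to 0.53, and -0.06 (adjusted p = 0.952), with one of -0.53 to 0.40. In the earlier yolk sacs edgeR called 0 of 10250 genes tested (0% higher and 0% lower), where 863 had an unadjusted p under 0.05; the count from DESeq2 was 0 too. In the later yolk sacs edgeR called 2 genes of 10317, 0.0194% higher and 0% lower, where 1122 had an unadjusted p under 0.05; DESeq2 gave 10 higher and 7 lower.

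**Figure D4:**
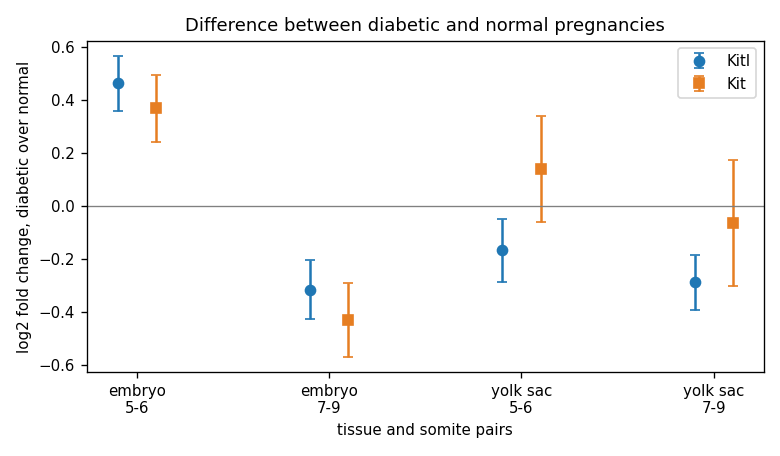
Log2 fold change of Kitl (blue circles) and Kit (orange squares) between diabetic and normal pregnancies in each tissue and stage, from edgeR, with bars for the standard error. In embryos both genes lie above 0 at 5-6 (0.46 and 0.37) and below 0 at 7-9 somite pairs (-0.31 and -0.43); in yolk sacs Kit lies near 0 and Kitl at -0.17 and -0.29.

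The diabetes effect of Kit did not pass the test for a difference between stages in yolk sacs (-0.20, standard error 0.32, adjusted p = 0.963 from edgeR), where 0% of 10857 genes were called, where 634 had an unadjusted p under 0.05 and DESeq2 gave 0. Nor did it pass for a difference between the tissues. Yolk sac minus embryo, the effect differed by -0.22 (95% confidence interval -0.68 to 0.24, adjusted p = 0.813) at the earlier stage, where 0% of 11677 genes were called, where 895 had an unadjusted p under 0.05 and DESeq2 gave 0. It differed by 0.37 (-0.18 to 0.91, adjusted p = 0.495) at the later stage, where 0.389% of 11577 genes were called. For Kitl the corresponding differences were -0.12 (standard error 0.16) between stages in yolk sacs, and -0.62 (standard error 0.16) and 0.04 (standard error 0.15) between the tissues at the earlier and later stages.

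Averaged over the conditions, the log2 change of Kitl from earlier to later embryos was -0.47 (standard error 0.08). It is given without a test, since it rests on the level of the diabetic embryos, which also enters the difference that chose the gene. Within the 10 litters that hold both stages, the mean change of Kitl was -0.25, with 3 of 10 litters higher at the later stage. Kit averaged over the conditions changed by -0.05 in embryos (standard error 0.09, adjusted p = 0.723 from edgeR), where 15.8% of 11304 genes were called lower and 15% higher, as opposite changes in normal and diabetic embryos offset each other. In yolk sacs Kitl changed by -0.13 (standard error 0.08, adjusted p = 0.211). Kit was lower in later yolk sacs by -0.38 (standard error 0.16, adjusted p = 0.0482), a call just under the threshold, where 18.3% of 10857 genes were called lower and 21.7% higher. That call was lost without D23M11, D28M24, D28M31, D28M53, N24M21, N28M07, N28M25 or N28M30 (adjusted p between 0.0550 and 0.102) and was not made within litters (mean change -0.47, higher in 1 of 10 litters, exact permutation p = 0.150, adjusted p = 0.283).

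The clearest contrast of the receptor was that between the tissues. Kit was lower in yolk sacs than in embryos by -1.14 on the log2 scale at the earlier stage (standard error 0.12, adjusted p = 2.0e-14 from edgeR) and by -1.53 at the later stage (standard error 0.14, adjusted p = 1.5e-16), with mean levels in yolk sacs of 42.8% and 34.1% of those in embryos. At these stages 39.8% and 42.6% of genes tested were called lower in yolk sacs, and 39.4% and 38.7% higher. Within concepti, Kit was higher in the yolk sac in 1 of 34 earlier and 1 of 32 later concepti. With litter means of these differences, 1 of 19 litters was higher in the yolk sac at the earlier stage (mean difference -1.09 ± 0.64, SD; two-sided exact sign-flip permutation test, adjusted p = 9.2e-05) and 0 of 13 at the later stage (-1.66 ± 0.63, SD; adjusted p = 0.00146).

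Differences of the ligand between the tissues were smaller than those of the receptor. Yolk sac minus embryo, Kitl differed by -0.06 at the earlier stage (standard error 0.08) and by 0.23 at the later stage (standard error 0.08). At the later stage the mean in yolk sacs was 116% of that in embryos. These differences are given without a test, since the levels of diabetic embryos, which helped to choose the gene, enter them. With GC and length trends removed, the later difference was 0.43 (standard error 0.07). It was 0.23 with the conceptus as a replicate block too, but litter means gave 0.12, with only 7 of 13 litters higher in the yolk sac. Whether the change between the stages differed between the tissues was tested over both tissues together, where 3.23% of 12183 genes were called. For Kit the difference was -0.33 (standard error 0.18, adjusted p = 0.337). For Kitl it was 0.35 (standard error 0.11), again without a test, since its change in embryos enters this value. The value for Kitl was 0.37 when a random block stood for the litter, and 0.39 once GC and length trends were removed.

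**Figure D5:**
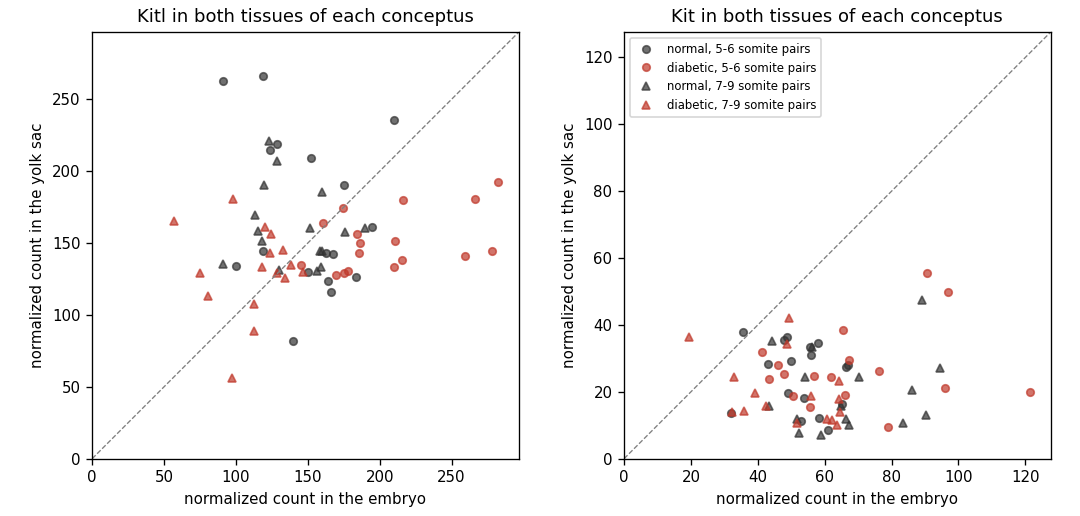
Normalized count in the yolk sac against that in the embryo of the same conceptus for Kitl (left) and Kit (right), with circles for 5-6 and triangles for 7-9 somite pairs, black for normal and red for diabetic, and a dashed line where both are equal. For Kit, all but 2 of the 66 concepti lie below the line; for Kitl they lie on both sides.

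The order of levels over the 8 groups differed between the genes. Kitl was highest in earlier diabetic embryos (206 normalized counts), followed by earlier normal yolk sacs (171), later normal yolk sacs (161), earlier diabetic yolk sacs (151), earlier normal embryos (149.8), later normal embryos (140.5), later diabetic yolk sacs (131) and later diabetic embryos (112). No step between neighbors in this order exceeded the larger SD of the pair. Kit was highest in earlier diabetic (68.4) and later normal embryos (67.0), followed by earlier normal (52.96) and later diabetic embryos (49.2), and then the yolk sacs (19.8 to 27.2). For Kit, 1 step exceeded the larger SD of its neighbors, that between embryos and yolk sacs.

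Across concepti, as deviations of log2 values from the means of the groups, ligand and receptor had a Pearson's r of 0.261 in embryos (permutation p = 0.0413, adjusted p = 0.330 over 8 relations) and a Spearman's rho of 0.305 (permutation p = 0.0147, adjusted p = 0.118). Without the 2 embryos farthest from the median of Kitl r was 0.318, and within litters it was 0.285 over 53 embryos. In yolk sacs r was -0.083 and rho -0.011 (adjusted permutation p = 0.713 and 0.997). Levels in the embryo and in its own yolk sac had r of -0.050 for Kitl and -0.079 for Kit (adjusted permutation p = 0.713 each), with rho of -0.00044 and -0.044 (adjusted p = 0.997 and 0.973). Over the 11 diabetic litters with a numeric glucose value, maternal glucose and Kitl in embryos had r of 0.349 and rho of 0.327, and the 4 relations with glucose had adjusted permutation p of 0.713 for r and 0.832 for rho. None of the 8 relations passed adjustment.

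The genes most like each member were taken by Pearson's r of the same deviations over 66 libraries of a tissue, among 6440 genes in embryos and 6480 in yolk sacs whose mean normalized count was 50 or more. For Kitl in embryos these were Bzw1 (0.687), Stag2 (0.664), Hells (0.664), Crnkl1 (0.659) and Polr2b (0.656). For Kit in embryos they were Hace1 (0.735), Qk (0.714), Pde7a (0.699), Bmt2 (0.698) and Cask (0.691). In yolk sacs they included Pja2 (0.650), Tspan13 (0.645), Fndc3c1 (0.626), Ccdc50 (0.620) and Rell1 (0.605) for Kitl, and N4bp2 (0.639), Kansl1 (0.635), Arid2 (0.632) and Pou2f1 (0.629) for Kit. Kit ranked 1511 of 6440 genes by likeness to Kitl in embryos. All of these values share the libraries, their depth and their RNA quality.

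Genes that carry the signal on from Kit, or release the ligand, were followed in a list of 54 genes, all of them in the table. In earlier embryos edgeR called 0 of the 45 tested, while 11 had an unadjusted p under 0.05, 8 of them higher, beside 2313 of 11004 genes; the median log2 fold change was 0.00 over the list and over all genes tested. In later embryos 44 were tested and 4 were called, 1 higher and 3 lower, a share near that of all genes (5.2% higher and 3.89% lower). Nras, a small GTPase (-0.51, standard error 0.15, adjusted p = 0.0351), Sos1, which loads Ras with GTP (-0.41, standard error 0.12, adjusted p = 0.0355), and Pik3ca, a catalytic subunit of phosphoinositide 3-kinase (-0.36, standard error 0.10, adjusted p = 0.0236), were lower in diabetic embryos. Pik3r2, a regulatory subunit of that kinase, was higher (0.45, standard error 0.12, adjusted p = 0.0132). These calls were made over concepti. With counts summed per litter, 8 genes in all were called in later embryos, against 966. The median of the list was -0.05 against -0.01 over all genes. In yolk sacs edgeR called 0 of 44 at each stage. Of these, 1 and 3 had an unadjusted p under 0.05, smaller shares than over all genes tested there. They were all higher, but too few to read a direction from.

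In the interaction of stage and diabetes in embryos, 7 of 47 tested genes of the list were called, 6 of them lower in the direction of Kit, beside 8.7% of all genes in either direction. Among these were the Src family kinase Yes1 (-0.87, adjusted p = 0.0297) and Cbl, a ubiquitin ligase that takes down active receptors (-0.83, adjusted p = 0.0140). Pik3r2 was the member with a positive difference (0.50, adjusted p = 0.0401). The median of the list was -0.02 against 0.01 over all genes.

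Between the stages, 8 members of the list were higher and 9 lower in later embryos among 47 tested, beside 15% and 15.8% of all genes. Akt2 (0.71, adjusted p = 7.8e-08), the adaptor Gab2 (0.55, adjusted p = 1.5e-04) and Adam17, a membrane protease that can shed Kit ligand (0.51, adjusted p = 1.5e-07), rose most. Yes1 (-0.37, adjusted p = 0.0227), the kinase Mapk3 (-0.29, adjusted p = 2.8e-05) and the kinase Braf (-0.29, adjusted p = 0.00904) fell most. In yolk sacs 6 were higher and 12 lower among 46 tested, beside 21.7% and 18.3% of all genes, again with Adam17 higher (0.36, adjusted p = 7.8e-05) and Yes1 lower (-0.53, adjusted p = 2.8e-04). Mitf, a transcription factor of melanocytes and mast cells downstream of Kit, was also lower in later yolk sacs (-0.53, adjusted p = 0.0198).

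Between the tissues, 26 of 49 tested members were higher and 12 lower in earlier yolk sacs than in earlier embryos, and 21 and 12 of 47 in later ones, beside 39.4% and 39.8%, then 38.7% and 42.6%, of all genes, with medians of 0.22 and 0.11 against -0.00 and -0.04 over all genes. The transcription factors Stat5a (2.54 in the earlier and 2.62 in the later samples) and Stat3 (2.53 and 2.49) and the Src family kinase Lyn (2.32 and 2.47) had the largest differences toward the yolk sac among the called members, each with an adjusted p of at most 2.3e-21. In the other direction were the adaptor Sh2b2 (-2.93 and -4.99; counted in 51 of 66 yolk sacs, with a mean of 2.95 normalized counts) and the receptor-binding adaptor Grb10 (-1.61 and -1.68) at both stages. Kit itself was lower in yolk sacs, and Stat5a, Stat3 and Lyn were higher there.

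Related receptors and ligands were listed for comparison, 11 genes with 10 in the table. In embryos 4 of them were tested, and in the interaction of stage and diabetes 1 was called, beside 8.7% of all genes in either direction. It was Pdgfra, the receptor of platelet-derived growth factor next to Kit on its chromosome, with a difference of -0.73 (standard error 0.17, adjusted p = 0.00841). With so few tested, that count says nothing about the list. The receptor genes Flt3 and Csf1r, close relatives of Kit, had means of 0.0083 and 1.71 normalized counts in embryos, with a count in 1 and 50 of the 66 libraries.

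Cell types that are known to use Kit were followed by their markers. Of 17 blood progenitor genes, 15 were tested between the tissues and all 15 were higher in yolk sacs at both stages, beside 39.4% and 38.7% of all genes, with median log2 differences of 2.32 and 1.70, opposite to Kit. Within yolk sacs, Kit and the mean log2 level of these genes had r of 0.576 over 66 libraries as deviations from group means, against 0.028 in embryos; Kit had r of -0.429 with visceral endoderm, 0.312 with endothelial and -0.351 with primitive erythroid markers in yolk sacs. These are descriptions, and the part of these cells in the level of Kit was not tested. Between the stages in yolk sacs, 4 of 15 tested were called lower and 3 higher, beside 18.3% and 21.7% of all genes. Gata2 (-0.62), Runx1 (-0.52), Fli1 (-0.46) and Lmo2 (-0.32) were lower, while Lyl1 (0.74), Gata1 (0.65) and Nfe2 (0.60) were higher (adjusted p at most 0.0328 from edgeR). In the interaction of stage and diabetes in embryos, 1 of 7 tested members was called, beside 8.7% of all genes in either direction. That was Cd34, with a difference of 0.81 (adjusted p = 0.0140).

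Several markers of germ cells and melanoblasts were near 0, and others were not. In embryos Dppa3, Nanos3, Prdm14 and Pou5f1 had means of 1.08, 0.087, 0.14 and 0.34 normalized counts, and Dct, Tyr, Tyrp1 and Mlana had 0.35, 0.15, 0.012 and 0.28. The other genes of the germ cell list had means of 391 (Sox2), 63.8 (Ifitm3), 60.8 (Tfap2c), 59.97 (Prdm1), 36.9 (Alpl) and 6.41 (Dnd1) normalized counts. The other genes of the melanoblast list had 35.6 (Sox10), 16.2 (Ednrb), 11.9 (Mitf) and 3.78 (Pmel). Libraries of whole embryos do not show which cells these counts came from, so they are not levels of germ cells or melanoblasts. In later embryos Sox10 (0.57, adjusted p = 0.0263) and Ifitm3 (0.52, adjusted p = 0.00831) were higher and Alpl (-0.51, adjusted p = 0.0284) lower in diabetic pregnancies. They were the called genes among 5 tested of the germ cell list and 3 of the melanoblast list. Of all genes, 5.2% were called higher and 3.89% lower there. Primitive erythroid and endothelial genes had no member called for diabetes in embryos. At the later stage 3 and 8 of them were tested, too few to set against these shares, and trophoblast genes had 1 tested there.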

How the data were processed

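Libraries were of the QuantSeq 3′ kind, in which a molecular identifier tags each transcript end. The authors aligned reads with STAR to mm10 (named in the submitters' processing notes), kept 1 read per identifier, and used HTSeq to assign reads to genes; tool versions and the gene annotation used are not given in the sources used here. They deposited raw counts, not normalized, with 47643 genes in rows and 136 libraries in columns. Since 3′ ends were counted, a count does not scale with transcript length.

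Groups came from the tissue, somite number and maternal condition in the labels. The quasi-likelihood test of edgeR 4.0.16 under R 4.3.3 was used after TMM scaling and filterByExpr with a minimum count of 10, with Benjamini-Hochberg adjustment over all genes tested and a call at an adjusted p under 0.05. Confidence intervals take the standard error with a normal approximation. Diabetes was fitted within tissue and stage, and stages, tissues and interactions over all groups involved. DESeq2 1.42.0 gave size factors and an alternative test, and limma 3.58.1 the litter block. Litter tests used means of log2(normalized count + 1) and all assignments, and relations 100000 permutations (Python 3.11.15, scipy 1.17.1). The edgeR step was tested on simulated data. Embryo and yolk sac of a conceptus come from 1 animal and were paired by title; diabetic and normal concepti share no dam. Symbols for 25646 of 26051 unnamed genes came from GENCODE M21.

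Kitl and Kit, the gene lists and the tests were chosen with earlier results of these data known, so p-values of Kit are not free of that choice. Genes were named by rule: both members, the called members of a list (at most 3 in each direction where over 6 were called; some of these were left out for space), and the 5 genes most like each member; some genes that this rule names are not reported here. Other genes named from the lists, such as markers near 0, were chosen after their values were seen. Alternatives are given in the closing section.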

Additional observations from a re-analysis of the deposited data

Results flagged for a closer look

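For Kit in embryos, the log2 fold change with diabetes was lower at 7 to 9 than at 5 or 6 somite pairs. The difference was -0.79 (p = 8.9e-05, adjusted p = 0.00965, interaction test of edgeR). It drew attention since the effects at the 2 stages, 0.37 and -0.43, point in opposite directions. The first of these was not called, and the call of the second was lost in most fits that left out a litter. Among the same embryos, later values were lower in 3 of 3 diabetic and higher in 7 of 7 normal litters that hold both stages. The difference was -0.82 without the embryos high in visceral endoderm RNA and -0.71 with GC and length trends removed.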

How the results depend on the processing

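The alternatives for the fits were DESeq2, RLE factors, no filter or a mean count of 10, sex and somite pairs or the title number as covariates, litter as a random block or as summed counts, the conceptus as a replicate block, added duplicates and each litter left out. After the data had been seen, GC and length trends removed, title number 28 alone, and leaving out embryos high in visceral endoderm RNA were added.

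Of the values of Kitl and Kit under these and under other pseudocounts, 27 lost a call, 3 gained one and 9 tested ones changed sign, none of the last with a call; the other tested values kept their direction and side of the threshold. These counts treat Kitl between the stages in embryos, between the tissues and for tissue by stage as tested, although the sections above give them without a test. Of the remaining untested values of Kitl, 1 changed sign (tissue by diabetes at the later stage, from 0.04 to -0.088 with trends removed). Kit in earlier embryos was called with the title number as a covariate (0.39, adjusted p = 0.0482; 0.0482 to 0.415 over the other settings). In later embryos its call was lost without the filter (-0.43), with sex and somite pairs (-0.42), the litter block (-0.44), litter sums (-0.38), trends removed (-0.36), title number 28 alone (-0.46) and without embryos high in visceral endoderm RNA (-0.41), with values of -0.47 to -0.38 when a litter was left out. Kit in later yolk sacs lost its stage call without the filter (-0.40; -0.51 to -0.33 without single litters). For tissue by stage, Kitl had 0.37 with the litter block and 0.39 with trends removed. Both are counted among the 3 gained calls, but that difference is given without a test. The tested values that changed sign were these: with trends removed, Kitl between stages in yolk sacs (0.025) and between tissues at the earlier stage (0.055); with title number 28 alone, Kit for diabetes in earlier yolk sacs (-0.047); and over fits that left out a litter, Kit for diabetes in earlier (-0.00047 to 0.23, negative without N28M06) and later yolk sacs (-0.34 to 0.066, positive without D28M31, N24M29, N28M03 or N28M05) and for stage by diabetes in yolk sacs (-0.42 to 0.0083, positive without N24M29). The causes were not tested. The replicate block for the conceptus changed no call; with it the tissue differences of Kit were -1.18 and -1.57.

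Counts of genes called moved more than those of the members. In earlier embryos the 161 called became 397 with DESeq2, 291 without the filter or with trends removed, 92 with sex and somite pairs, 324 with the title number, 1753 in title number 28 alone, 74 without embryos high in visceral endoderm RNA, 4 with the litter block and 0 with litter sums. In later embryos 966 became 1714 with the title number, 550 with trends removed, 314 and 8 by litter. The 984 of the interaction in embryos became 438 without the filter, 2129 with the title number, 579, 1735 and 622 under the added settings. Tissue calls were 14068 and 14581 without the filter, against 9243 and 9413, and those for tissue by diabetes at the later stage 22 to 219, against 45. In yolk sacs the diabetes calls were 0 or 1 at the earlier and 0 to 25 at the later stage.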

Other observations

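Of the 4 batch-control libraries left out of the comparisons, those of conceptus D24M15G had 178.6 normalized counts of Kitl in the embryo against 148 in the original, and 143 against 131 in the yolk sac. Those of conceptus N28M06C had 122 against 120.2 and 239.7 against 268. On the log2 scale, the repeats of both genes differed from their originals by -0.16 to 0.28.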
